A study of Mus musculus with 2 samples.

Results

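The genes described here were Edar, Edaradd, Tnfrsf19, Nfkbia, Relb, Ltb, Fgf20 and Cxcr4, which form the ectodysplasin receptor arm of hair placode signalling, its NF-κB branch and genes known to respond to it. They were chosen by symbol, with earlier results of these data known, as 8 of the 27998 genes in the count tables. They were followed in every barcode with at least 1800 genes. Skin epithelial cells of C57BL/6 embryos at embryonic day 17 were measured in 1 control library (Ctrl: Mettl3 fl/+, Rosa16-YFP fl/+, K14Cre) and 1 conditional knockout library (cKO: Mettl3 fl/fl, Rosa16-YFP fl/+, K14Cre). Mettl3 encodes the catalytic subunit of the mRNA N6-adenosine methyltransferase. K14Cre, which acts in Krt14-expressing epithelium and its descendants, and the YFP reporter allele were thus present in both libraries, and the control animals carried 1 floxed Mettl3 allele. Live YFP+ cells had been sorted on integrins α6 and β1 and against CD31, CD45, CD117 and CD140a, so the sort helped to set how many cells of each kind were seen. With 1 library per condition there was no test between conditions. Levels are given as CPM, the unique molecular identifiers (UMIs) of a gene summed over a group of cells and scaled to a total of 1000000 UMIs, with an exact Poisson 95% interval, and ratios with an exact conditional binomial 95% interval, and all of these cover counting error only.

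Hair follicles begin as placodes, local thickenings of the embryonic epidermis. The ligand ectodysplasin (Eda) is made in the surrounding epithelium and binds the receptor Edar, whose death domain recruits the adaptor Edaradd. Edaradd passes the signal through TRAF proteins and the IκB kinases, which free NF-κB for transcription, and loss of ligand, receptor or adaptor in mice and humans gives hypohidrotic ectodermal dysplasia with missing hair types, teeth and sweat glands. Nfkbia encodes IκBα, which holds NF-κB in the cytoplasm and is itself an NF-κB target gene, so its mRNA is a common readout of the pathway. Fgf20 is the placode signal to the dermal condensate beneath. Dkk4, a secreted WNT inhibitor, marks placode cells and was used here to find them and later to split them.

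The stretches before the starts of 3 members are shown because they hold the sequence matches that the pathway makes of interest, a κB site for the NF-κB target genes Nfkbia and Ltb and a TCF/LEF site, the WNT-responsive motif, for Edar. They are printed in the direction of transcription, from RefSeq on GRCm38.p6, and capitals mark the match. Those of Nfkbia (chr12:55492648-55492897, minus strand) and Edar (chr10:58675697-58675946, minus strand) are the 250 bases before the RefSeq start, and that of Ltb (chr17:35194257-35194438, plus strand) ends 1 base before the GENCODE gene begins.
Nfkbia: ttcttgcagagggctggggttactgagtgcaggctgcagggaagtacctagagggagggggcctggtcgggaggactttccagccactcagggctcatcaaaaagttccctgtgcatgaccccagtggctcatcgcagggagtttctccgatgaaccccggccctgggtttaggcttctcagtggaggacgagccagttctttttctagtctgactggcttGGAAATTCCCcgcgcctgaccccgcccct
Ltb: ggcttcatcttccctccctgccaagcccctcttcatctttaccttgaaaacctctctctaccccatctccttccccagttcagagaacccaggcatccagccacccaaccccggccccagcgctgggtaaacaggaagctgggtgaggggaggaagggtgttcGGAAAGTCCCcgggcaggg
Edar: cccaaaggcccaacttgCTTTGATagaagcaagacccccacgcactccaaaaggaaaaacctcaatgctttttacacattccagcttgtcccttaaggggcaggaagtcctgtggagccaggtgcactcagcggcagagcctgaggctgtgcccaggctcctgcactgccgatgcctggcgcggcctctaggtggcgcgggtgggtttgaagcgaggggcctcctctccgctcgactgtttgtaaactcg
The κB decamer consensus and CTTTGAT were searched on both strands, and these motifs do not overlap each other in the stretches shown. The κB matches of Nfkbia and Ltb lie on the strand opposite to the one shown, 29 to 20 and 87 to 78 bases before the RefSeq start, and the CTTTGAT of Edar lies 233 to 227 bases before it. Of 32851 RefSeq promoter windows of 250 bases, 7.25% hold a κB match and 3.21% a CTTTGAT. Windows were present for 6 of the 8 members, with 2 for Tnfrsf19, and of these 7 windows 2 hold a κB match (Nfkbia and Ltb) and 2 a CTTTGAT (Edar and 1 of Tnfrsf19). A match describes the sequence alone, and binding was not measured. In GENCODE vM21 on GRCm38 all 8 members are protein-coding genes. Fgf20 lies on chromosome 8, where it overlaps Micu3 on the other strand, Ltb and Fgf20 each overlap a microRNA gene on their own strand, and Tnfrsf19 overlaps the antisense gene Gm41168 on chromosome 14. The other members overlap no gene.

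The libraries held 59664869 UMIs in Ctrl and 49755010 UMIs in cKO, and 4447 and 3577 cells passed the gene minimum, with medians of 8941 and 8581 UMIs. Cells were sorted into groups by 9 genes that include no member. Placode cells had a UMI of Dkk4 (169 in Ctrl and 195 in cKO). Other follicle cells had at least 2 UMIs of Shh, Lhx2, Sox9 and Krt79 together (949 and 936), basal cells had Krt5 and Krt14 at 0.5% of UMIs or more and none of those follicle genes (2452 and 1541), and suprabasal cells had Krt1 and Krt10 at 0.5% or more (396 and 279). Among other follicle cells, 140 and 146 were Shh+, 342 and 334 were Lhx2+ Sox9+, and 216 and 206 were Krt79+. A further 419 and 574 cells entered no group, and 62 and 52 cells with markers of other cell types were set aside. The names were checked on genes not used for grouping, of which Bmp2 was not among those fixed beforehand. Bmp2, a placode gene, stood at 237 and 199 CPM in placode cells against 38.0 and 28.3 CPM in basal cells, and the differentiation gene Krtdap at 8751 and 8084 CPM in suprabasal cells against 2481 and 2568 CPM in basal and 780 and 785 CPM in placode cells. Of the follicle genes, Krt17 stood at 3923 and 2851 CPM in other follicle against 761 and 674 CPM in basal cells. In Ctrl suprabasal cells Krt17 stood at 908 CPM, above the basal level. Of the basal genes, Col17a1 stood at 205 and 195 CPM in basal against 116 and 99.5 CPM in other follicle cells. Krt15 did not separate basal from Krt79+ cells, at 6047 and 3583 CPM against 6024 and 4168 CPM.

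Libraries differed in more than the floxed allele. Xist was found in 99.8% of Ctrl cells and in 1 cKO cell, so the sex of the embryos and the genotype cannot be told apart. Mettl3 itself stood at 12.7 CPM in Ctrl and 6.18 CPM in cKO over all kept cells, a ratio of 0.487 (0.414 to 0.572). The method reads the 3′ end of a transcript, outside the floxed exon, so this level does not check the deletion itself. Basal cells of cKO carried less of the basal keratins than those of Ctrl. Krt14 stood at 8193 against 10522 CPM and Krt15 at 3583 against 6047 CPM. Basal cells made up 43.1% of kept cells in cKO against 55.1% in Ctrl, a share that depends on the Krt5 and Krt14 threshold. At 1% or more the group went from 1541 to 862 cells in cKO and from 2452 to 1988 cells in Ctrl. Cells in no group made up 16% of kept cells in cKO and 9.42% in Ctrl. How far the threshold sets the lower basal share was not tested. Most markers of other cell types were scarce in placode cells, but Dcn, a gene of fibroblasts that the mesenchymal list first held, had a UMI in 99.4% of Ctrl and 95.9% of cKO placode cells and in 88.1% and 82.3% of basal cells. The mesenchymal sum was the higher in cKO, and its part in the results was not tested. The summed level was 2.91 CPM in Ctrl and 7.18 CPM in cKO for the 4 mesenchymal markers other than Dcn (Col3a1 at 0), 1.16 and 1.10 CPM for 7 immune markers (Ptprc, Cd3e, Cd3g and Laptm5 at 0) and 4.07 and 4.97 CPM for 4 endothelial markers (Cdh5, Kdr and Emcn at 0). For 4 Merkel cell markers it was 0 and 0.552 CPM (Atoh1, Krt20 and Snap25 at 0), and for 6 melanocyte and glial markers 7.56 and 1.66 CPM (Tyrp1 and Sox10 at 0). Free RNA, estimated from barcodes with 10 to 100 UMIs, could make up at most 7.68% of the UMIs of Ctrl placode cells and 9.40% of those of Ctrl basal cells, the share at which all of their Krt10 would be free. The median mitochondrial share of placode cells was 5.01% in Ctrl and 5.79% in cKO.

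The placode was where most members were found at their highest or near their highest level. At least 2-fold more in placode than in basal cells, in both libraries, were Edar, Relb, Ltb, Fgf20 and Cxcr4, 5 of 8 members, where 3.17% of the 10859 genes measured met the same rule. The members are genes of placode signalling chosen with earlier results of these data known, so this count is a description and no test of enrichment. Nfkbia and Tnfrsf19 were higher in placode cells by less than 2-fold and Edaradd was near one level in both groups. No member was at least 2-fold lower in placode cells, against 2.93% of all genes. In suprabasal cells all 8 members were below their basal level in both libraries, although for Ltb, Fgf20 and Cxcr4 this rested on 1 to 3 UMIs in each library. The bound on free RNA in suprabasal cells, the share at which all of their Krt14 would be free, was 53.6% and 52.5% of UMIs. That bound is too high, because the suprabasal levels of all members but Edaradd and Nfkbia lay below what that share would carry. Edar, for example, stood at 2.47 CPM in Ctrl and 2.72 CPM in cKO, where the bound would carry 8.13 and 9.15 CPM. With Dcn among the mesenchymal markers, as the grouping was first written, only 16 and 30 placode cells were left and 2 members, Edar and Relb, met the 2-fold rule, with too few UMIs to measure Ltb, Fgf20 and Cxcr4. The plot of levels by group shows this split, with Fgf20 and Ltb low outside placode and Shh+ cells and Edaradd spread over all groups.

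**Figure D1:**
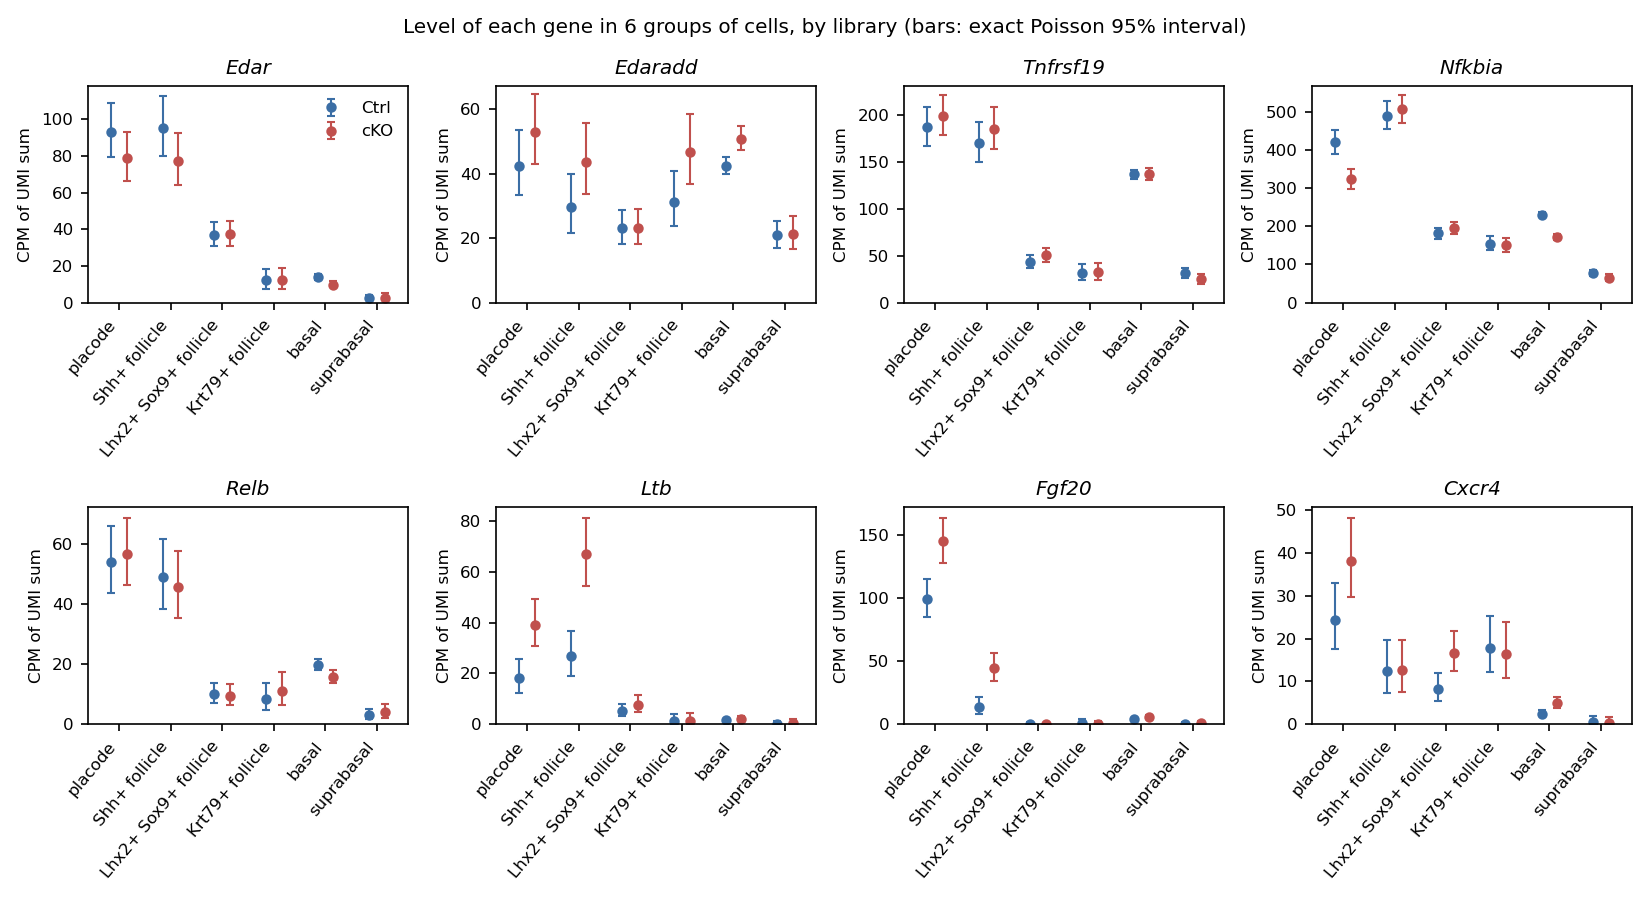
Level of each of the 8 genes (vertical axis, CPM of summed UMIs) in 6 groups of cells (horizontal axis) in the Ctrl (blue) and cKO (red) libraries, with bars for the exact Poisson 95% interval of counting error. Edar stood at 93.1 and 79.0 CPM in placode cells against 13.8 and 9.92 CPM in basal cells, whereas Edaradd stood at 42.5 and 53.0 against 42.4 and 50.8 CPM.

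Edar, the receptor, was present at 93.1 CPM (79.2 to 109) in Ctrl and 79.0 CPM (66.5 to 93.0) in cKO placode cells and at 13.8 CPM (12.4 to 15.4) and 9.92 CPM (8.37 to 11.7) in basal cells. The placode to basal ratio was 6.73 (5.53 to 8.15) in Ctrl and 7.96 (6.27 to 10.1) in cKO. The receptor was not confined to cells with a Dkk4 UMI. Shh+ follicle cells, which had no Dkk4 UMI, held it at 95.3 CPM (80.1 to 113) and 77.4 CPM (64.1 to 92.8). The ratio of placode to Shh+ cells, 0.976 (0.773 to 1.23) and 1.02 (0.793 to 1.31), had an interval on both sides of 1. Placode cells whose Dkk4 was missed could enter the Shh+ group, since 97 of 169 Ctrl and 115 of 195 cKO placode cells held Shh. How many did so was not tested. Edar levels were lower elsewhere in both libraries, with 37.0 and 37.3 CPM in Lhx2+ Sox9+ cells, 12.3 and 12.1 CPM in Krt79+ cells and 2.47 and 2.72 CPM in suprabasal cells. The Krt79+ and basal levels could not be separated by their intervals. Thinned to 5500 UMIs per cell, 35.5% (28.3 to 43.3) of Ctrl and 32.6% (25.9 to 39.9) of cKO placode cells held an Edar UMI, against 1.53% and 0.738% of suprabasal cells. At full depth the placode shares were 53.3% and 50.3%. Between the libraries Edar was lower in cKO by a ratio of 0.848 (0.672 to 1.07) in placode cells, 0.812 (0.630 to 1.05) in Shh+ cells and 0.717 (0.585 to 0.875) in basal cells. Only the basal interval lay below 1, and none of these passed 1.5-fold. The basal ratio was 0.587 with basal cells taken at 1% or more of Krt5 and Krt14 and 0.657 with at least 2500 genes per cell. Without cells with a UMI of the cycle genes Mki67 or Top2a the basal ratio was 0.959 (0.657 to 1.38), an interval that included 1. The Shh+ ratio without those cells was 0.600 (0.376 to 0.943), an interval below 1 and a ratio past 1.5-fold.

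Edaradd, the adaptor that Edar needs, did not follow the receptor. It was at 42.5 CPM (33.3 to 53.4) in Ctrl placode cells and 42.4 CPM (39.9 to 45.2) in Ctrl basal cells, and at 53.0 CPM (42.9 to 64.7) and 50.8 CPM (47.2 to 54.6) in cKO, a placode to basal ratio of 1.00 (0.778 to 1.27) and 1.04 (0.835 to 1.29). Basal cells thus held 61.2% and 50.7% of all Edaradd UMIs, compared with 32.8% and 19.3% of the Edar UMIs. The lowest levels were in suprabasal cells, at 21.0 and 21.2 CPM, and in Lhx2+ Sox9+ cells, at 23.1 in both libraries. Edaradd was higher in cKO in basal cells by a ratio of 1.20 (1.09 to 1.32) and in other follicle cells by 1.19 (1.01 to 1.40). Within the follicle the ratio was 1.49 (1.04 to 2.14) in Krt79+ cells and 1.47 (0.987 to 2.21) in Shh+ cells, the latter past 1.5-fold under 4 of 16 alternatives. The placode ratio, 1.25 (0.911 to 1.72), was of like size with an interval that included 1.

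Tnfrsf19 encodes TROY, a receptor of the same family that acts partly in place of Edar in mouse hair formation and binds no ectodysplasin. It stood at 187 CPM (167 to 208) in Ctrl and 199 CPM (179 to 220) in cKO placode cells, at 170 and 185 CPM in Shh+ cells and at 136 and 137 CPM in basal cells. Placode cells exceeded basal cells 1.37-fold (1.22 to 1.54) and 1.45-fold (1.29 to 1.62). Unlike Edar, Tnfrsf19 was lower in the rest of the follicle than in basal cells, with 43.3 and 50.3 CPM in Lhx2+ Sox9+ cells and 31.3 and 32.2 CPM in Krt79+ cells, so that other follicle cells as a whole stood at 0.491 (0.450 to 0.536) and 0.532 (0.486 to 0.581) of the basal level. Its level barely differed between the libraries, with a ratio of 1.00 (0.949 to 1.06) in basal cells and 1.06 (0.913 to 1.24) in placode cells.

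Nfkbia, the inhibitor and feedback target, was at its highest in Shh+ cells, 490 CPM (454 to 527) in Ctrl and 506 CPM (471 to 543) in cKO. Placode cells followed with 419 CPM (389 to 451) and 323 CPM (297 to 350), and basal cells with 230 CPM (224 to 236) and 172 CPM (165 to 179). Its placode to basal ratio was 1.82 (1.68 to 1.97) and 1.88 (1.71 to 2.06). The difference between the libraries was not the same in all groups. It was lower in cKO by a ratio of 0.770 (0.689 to 0.860) in placode, 0.747 (0.713 to 0.784) in basal and 0.831 (0.700 to 0.985) in suprabasal cells, while in Shh+ cells the ratio was 1.03 (0.931 to 1.15) and in other follicle cells 1.00 (0.944 to 1.06). The placode interval lies wholly below that of the Shh+ cells, and the difference between groups was not tested. The placode level was 0.856 (0.771 to 0.951) of the Shh+ level in Ctrl and 0.639 (0.572 to 0.712) in cKO.

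Relb encodes the transcription factor subunit of the noncanonical NF-κB pathway and is induced by canonical NF-κB. Its level was 54.1 CPM (43.7 to 66.3) in Ctrl and 56.9 CPM (46.4 to 69.0) in cKO placode cells, 49.0 and 45.7 CPM in Shh+ cells and 19.8 and 15.8 CPM in basal cells. Placode cells held 2.74 times (2.17 to 3.43) and 3.60 times (2.83 to 4.57) the basal level. In the Lhx2+ Sox9+ cells of both libraries Relb was below 10 CPM, at 9.97 and 9.56 CPM, and Shh+ cells exceeded these 4.92-fold (3.24 to 7.60) and 4.78-fold (3.09 to 7.55). Like Nfkbia and Edar it was lower in cKO basal cells, by a ratio of 0.799 (0.679 to 0.937), and its placode ratio was 1.05 (0.787 to 1.41).

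Ltb encodes lymphotoxin β, a membrane-bound ligand downstream of Edar in the embryonic skin that signals through the lymphotoxin β receptor. It rested on few molecules, 31 UMIs in 21 Ctrl placode cells and 71 UMIs in 35 cKO placode cells, or 18.0 CPM (12.3 to 25.6) and 39.2 CPM (30.6 to 49.4). In Shh+ cells there were 39 UMIs in 18 cells and 101 UMIs in 35 cells, 26.9 CPM (19.2 to 36.8) and 66.9 CPM (54.5 to 81.2). All other groups were far below, with 5.13 and 7.71 CPM in Lhx2+ Sox9+ cells and 1.57 and 2.21 CPM in basal cells. The placode to basal ratio was 11.5 (6.91 to 19.1) in Ctrl and 17.8 (11.6 to 27.9) in cKO. Ltb was the member with the widest difference between the placode cells of the libraries. It was higher in cKO by a ratio of 2.17 (1.41 to 3.43) in placode, 2.48 (1.70 to 3.69) in Shh+ and 2.38 (1.75 to 3.26) in other follicle cells. Thinned to 5500 UMIs per cell, 9.04% (5.15 to 14.5) of Ctrl and 13.0% (8.54 to 18.8) of cKO placode cells held an Ltb UMI. In Shh+ cells these shares were 9.63% (5.23 to 15.9) and 15.4% (9.82 to 22.6), and the intervals of the libraries overlapped in both groups. Without the cell with the most Ltb UMIs in each library (5 in Ctrl and 12 in cKO) the placode ratio was 2.14 (1.33 to 3.53). These ratios depended on which cells entered. With Dcn among the mesenchymal markers, which left 33 of 140 Ctrl and 41 of 146 cKO Shh+ cells, the ratio was 0.438 in Shh+ cells on 21 UMIs and 1.21 in other follicle cells. Without cells with a UMI of Mki67 or Top2a it was 1.5 (0.721 to 3.21) in Shh+ cells and 1.48 (0.875 to 2.54) in other follicle cells.

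Fgf20, the placode signal to the dermis, was the member most tied to the placode. It reached 98.9 CPM (84.6 to 115) in Ctrl and 145 CPM (128 to 163) in cKO placode cells, against 4.36 CPM (3.56 to 5.29) and 5.58 CPM (4.43 to 6.94) in basal cells, a ratio of 22.7 (17.7 to 29.3) and 25.9 (20.1 to 33.7). Of all Fgf20 UMIs, 50.4% in Ctrl and 53.4% in cKO lay in placode cells, which were 3.8% and 5.45% of kept cells. Lhx2+ Sox9+ cells held 1 UMI in Ctrl and 0 UMIs in cKO, where the floor of 3 counts stands at 0.925 CPM. In Shh+ cells, which held as much Edar as placode cells, Fgf20 was 13.8 CPM (8.44 to 21.3) in Ctrl and 44.4 CPM (34.4 to 56.3) in cKO. The placode level was therefore 7.16 times (4.49 to 12.0) the Shh+ level in Ctrl and 3.26 times (2.49 to 4.33) in cKO. Fgf20 was higher in cKO by a ratio of 3.21 (1.92 to 5.59) in Shh+ cells, 2.94 (1.82 to 4.89) in other follicle cells and 1.46 (1.20 to 1.79) in placode cells, the last just under 1.5-fold. The Shh+ ratio rested on 20 UMIs in 15 Ctrl cells and 67 UMIs in 30 cKO cells. These were most of the 24 and 68 UMIs of other follicle cells, so the Shh+ and other follicle ratios are not separate results. After thinning to 5500 UMIs per cell, 11.1% (6.35 to 17.7) of Ctrl and 16.9% (11 to 24.3) of cKO Shh+ cells held an Fgf20 UMI. The intervals of these shares overlapped. The placode ratio was 1.92 with at least 2500 genes per cell and 0.904 without cells with a UMI of Mki67 or Top2a.

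Cxcr4 encodes the receptor for the chemokine Cxcl12. Placode cells held 24.4 CPM (17.6 to 33.0) in Ctrl and 38.1 CPM (29.6 to 48.2) in cKO, and basal cells 2.50 CPM (1.90 to 3.22) and 4.96 CPM (3.88 to 6.25). The placode to basal ratio was 9.78 (6.43 to 14.8) and 7.68 (5.44 to 10.8). Within the follicle its order differed from that of Edar, Relb and Ltb, because Shh+ cells, at 12.4 and 12.6 CPM, were below the Krt79+ cells, at 17.9 and 16.4 CPM, with overlapping intervals. It was higher in cKO by a ratio of 1.99 (1.39 to 2.85) in basal, 1.56 (1.05 to 2.35) in placode and 1.52 (1.16 to 2.01) in other follicle cells, with 1.01 (0.502 to 2.04) in Shh+ cells. With basal cells taken at 1% or more of Krt5 and Krt14 the basal ratio was 1.29, and the placode ratio was 1.25 with at least 2500 genes per cell and 1.47 after thinning to 5500 UMIs. The other follicle ratio was under 1.5-fold in 5 of 17 alternatives and lowest, at 1.33, without cells with a UMI of Mki67 or Top2a.

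Read as counts past 1.5-fold, the members that differed between the libraries were Ltb, Fgf20 and Cxcr4, each of them higher in cKO. In placode cells Ltb and Cxcr4 were higher, 2 of 8, where 11% of the 8575 genes measured were, and 0 members were lower, where 8.09% were. In other follicle cells Ltb, Fgf20 and Cxcr4 were higher, 3 of 8, against 6.16% of all genes, with 0 lower against 4.51%. In its Shh+ part the count was 2 of 8 (Ltb and Fgf20) against 9.29%, with 0 lower against 8.6%. In basal cells 1 of 8 was higher (Cxcr4), near the background of 8.2%, with 0 lower against 4.89%. In suprabasal cells none of the 5 members measured passed in either direction, against 11.9% and 5.68%, and Ltb, Fgf20 and Cxcr4 fell short of 20 UMIs there. The median log2 ratio of the 8 members was 0.21 in placode and 0.19 in other follicle cells, beside 0.00 and -0.02 over all measured genes. The plot of ratios places Edar, Edaradd, Tnfrsf19, Nfkbia and Relb between the dotted lines in each of the 4 groups shown. Over the placode, other follicle, basal and suprabasal cells this made 6 of 29 measured pairs of member and group higher in cKO and 0 lower. With Dcn among the mesenchymal markers it was 1 of 19 higher (Cxcr4 in basal cells) and 3 lower, Tnfrsf19 at 0.634 and Nfkbia at 0.57 in placode cells and Relb at 0.609 in basal cells.

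**Figure D2:**
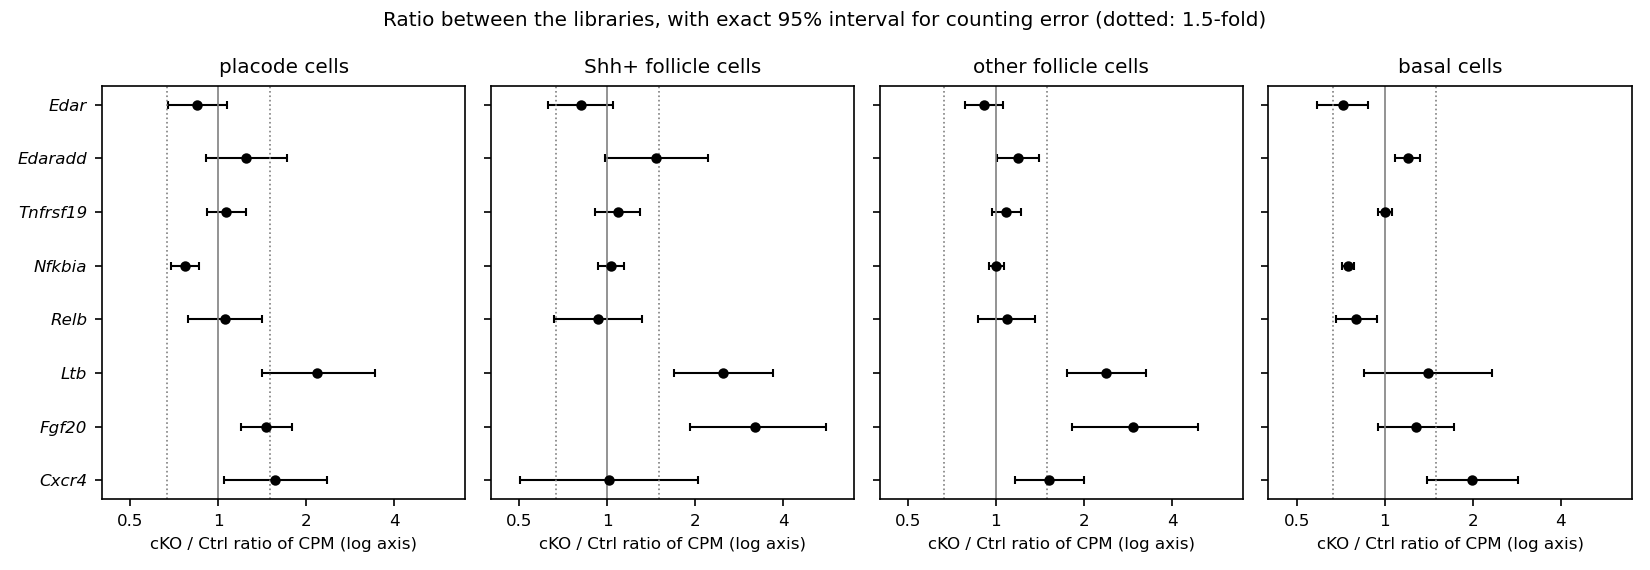
Ratio of the cKO to the Ctrl level (horizontal log axis) for each gene in 4 groups of cells, with the exact 95% interval of counting error. Shh+ cells are part of the other follicle cells. Solid lines mark 1 and dotted lines 1.5-fold in each direction, and the points farthest to the right are Fgf20 in Shh+ (3.21) and other follicle cells (2.94), followed by Ltb in Shh+ (2.48), other follicle (2.38) and placode cells (2.17).

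Placode cells were not uniform, in splits by Dkk4 and by Shh that were added after the data were seen. Split by their Dkk4 count into 1, 2 to 5 and over 5 UMIs, they held more Fgf20 with more Dkk4 in both libraries, 47.1, 95.8 and 164 CPM in Ctrl and 95.3, 177 and 180 CPM in cKO. The cells with over 5 Dkk4 UMIs exceeded those with 1 by 3.48-fold (2.26 to 5.50) in Ctrl and 1.89-fold (1.36 to 2.64) in cKO for Fgf20 and by 2.1-fold (1.22 to 3.73) and 1.8-fold (1.10 to 2.96) for Relb. Edar did not follow Dkk4, with ratios of 1.24 (0.809 to 1.90) and 1.13 (0.721 to 1.76). Median depth was 8989, 7803 and 9289 UMIs in the Ctrl bins and 7876, 8391 and 8512 UMIs in the cKO bins. For Fgf20, Ltb and Cxcr4 the libraries stood closest in the cells with the most Dkk4, which was not so for Edar, Edaradd, Tnfrsf19, Nfkbia and Relb. For Fgf20 the cKO to Ctrl ratio was 2.02 (1.3 to 3.24) at 1 Dkk4 UMI, 1.85 (1.32 to 2.6) at 2 to 5 and 1.1 (0.806 to 1.51) over 5. For Ltb it was 5.03 (1.93 to 16.6) on 5 and 30 UMIs, 1.87 (0.969 to 3.75) and 1.2 (0.485 to 3). Whether these ratios differ between the bins was not tested, and cells with 1 Dkk4 UMI include any that carried it from free RNA.

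**Figure D3:**
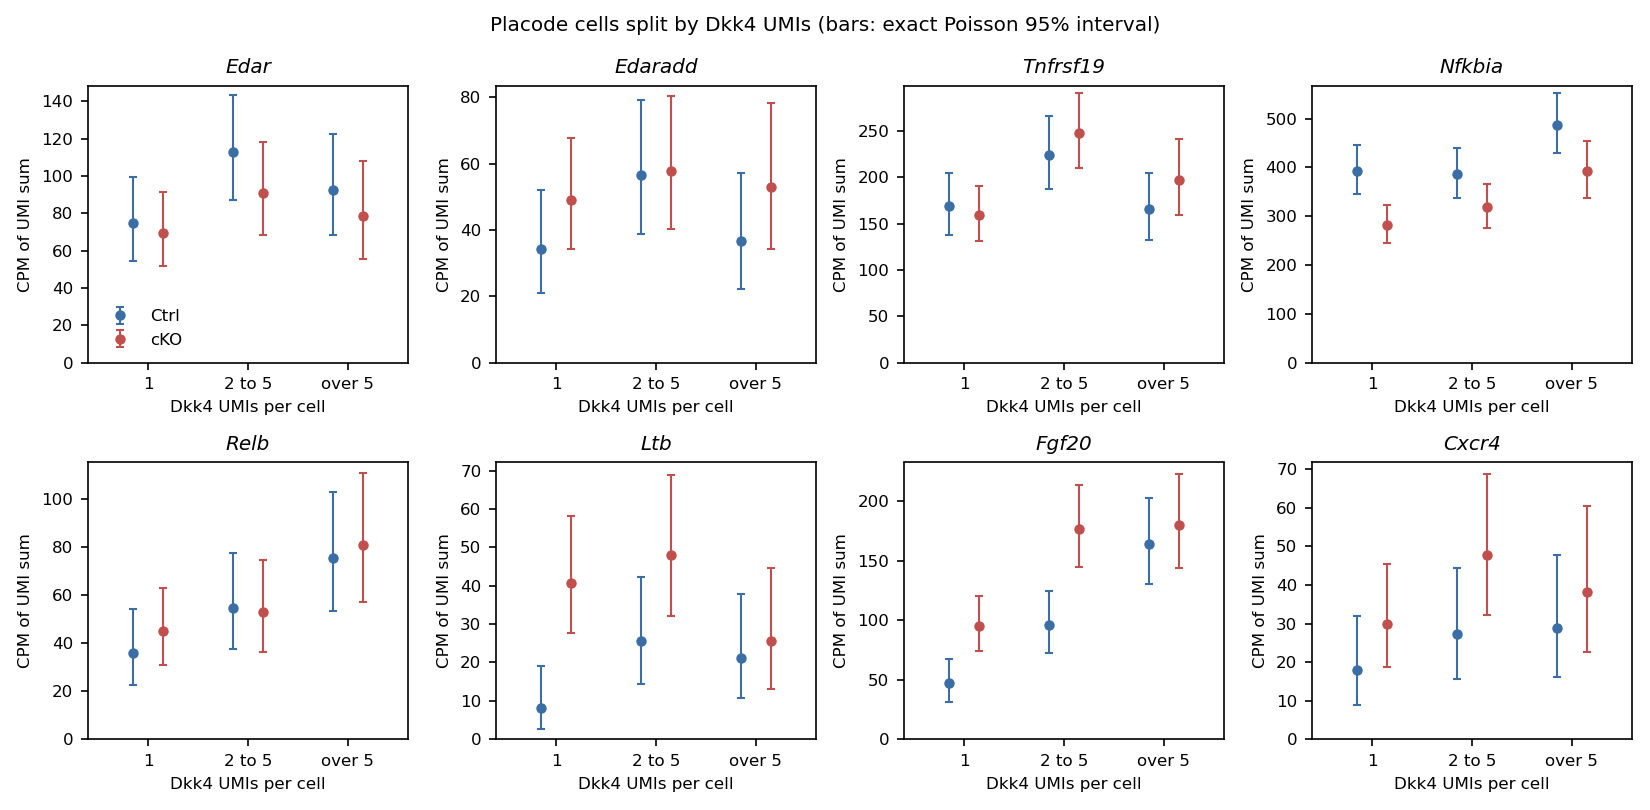
Level of each gene (CPM, exact Poisson 95% interval) in placode cells with 1, 2 to 5 or over 5 UMIs of Dkk4, in Ctrl (blue) and cKO (red). In Ctrl the Fgf20 level goes from 47.1 to 164 CPM across the bins, whereas Edar goes from 74.7 to 92.5 CPM.

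Shh, a second secreted placode signal, divided the same cells in another way, in a split also added after the data were seen. Edar was at 56.8 and 51.8 CPM in placode cells without a Shh UMI and at 120 and 97.4 CPM in those with one, and the cells without Shh held 0.471 (0.323 to 0.675) and 0.532 (0.357 to 0.777) of the level of the others. For Ltb this ratio was 0.318 (0.107 to 0.793) and 0.269 (0.128 to 0.517), and for Fgf20 0.319 (0.211 to 0.469) and 0.589 (0.445 to 0.774). For Edaradd it was 0.872 (0.526 to 1.43) in Ctrl and 0.636 (0.396 to 0.997) in cKO, so that an interval reached 1 in Ctrl alone. A UMI of Shh is more likely in a deeper cell, and median depth was 9141 and 8126 UMIs without Shh and 8380 and 8189 UMIs with it.

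Basal cells with at least 2 UMIs of Bmp2, a split chosen with the data in view, numbered 168 in Ctrl and 75 in cKO, and some members stood apart in them without any Dkk4. Fgf20 was 16.3 CPM (11 to 23.3) in Ctrl and 48.0 CPM (34.3 to 65.4) in cKO, against 2.17 and 2.1 CPM in basal cells without Bmp2. Cxcr4 was 7.07 CPM (3.77 to 12.1) and 32.4 CPM (21.4 to 47.1), against 1.76 and 2.71 CPM. Between the libraries these cells differed more than the basal cells without Bmp2, by a ratio of 2.94 (1.79 to 4.89) for Fgf20 and 4.58 (2.28 to 9.67) for Cxcr4, where the others had 0.967 (0.554 to 1.66) and 1.54 (0.902 to 2.64), and whether the ratios differ was not tested. Edar was higher in them to a lesser degree, 2.35-fold (1.69 to 3.21) in Ctrl and 1.98-fold (1.04 to 3.48) in cKO over cells without Bmp2, and Ltb rested on 2 and 3 UMIs.

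**Figure D4:**
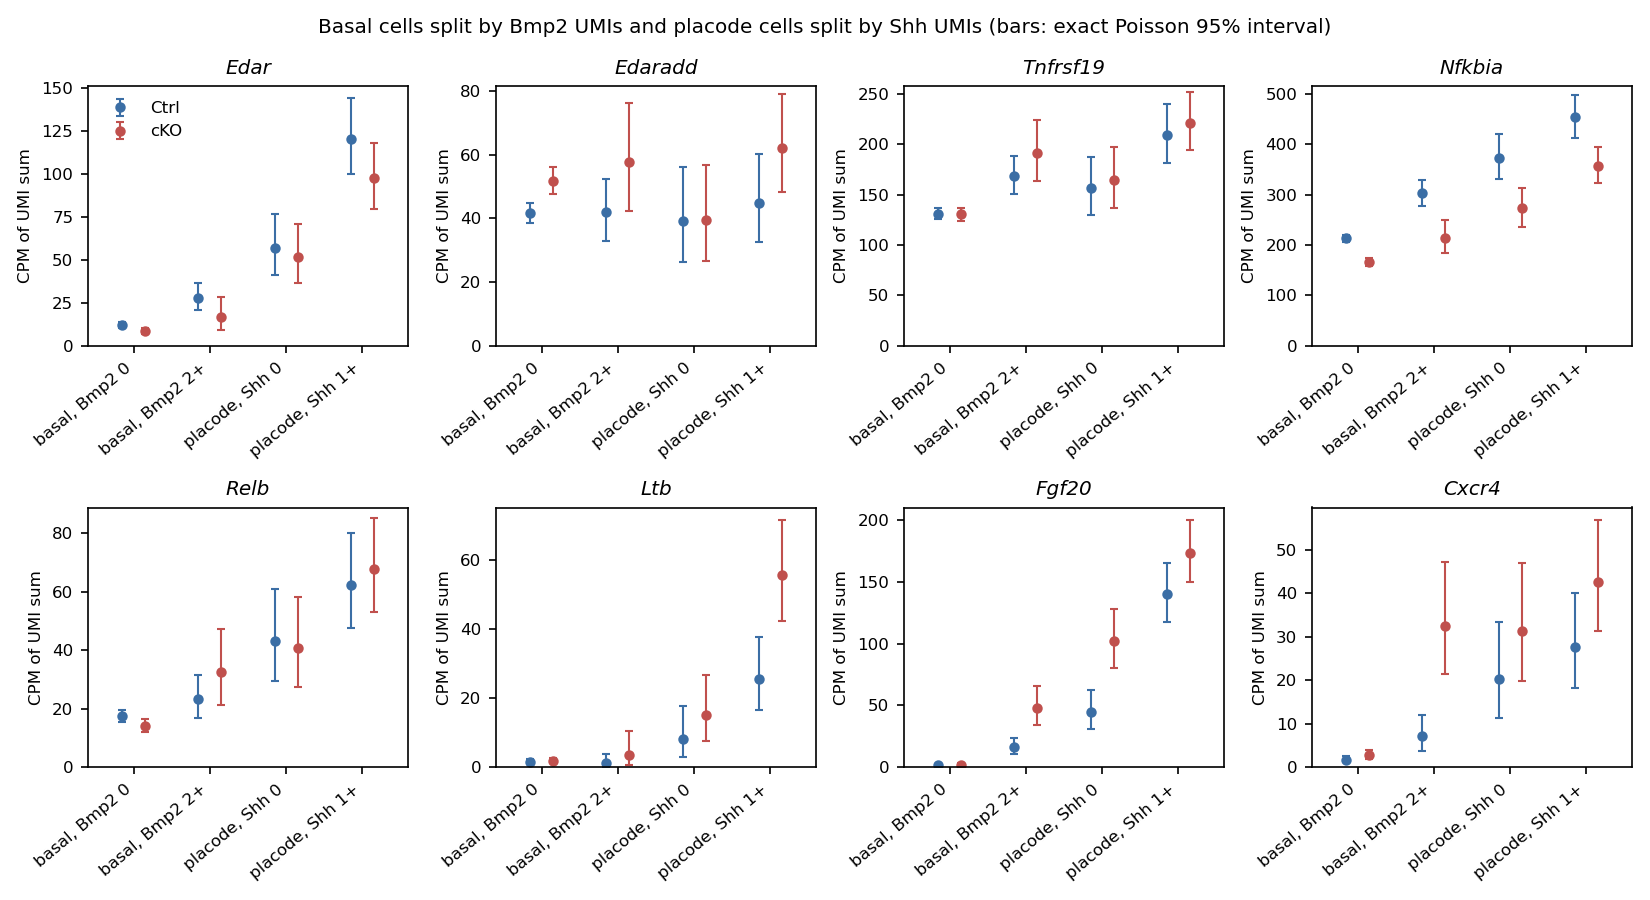
Level of each gene (CPM, exact Poisson 95% interval) in basal cells with 0 or at least 2 UMIs of Bmp2 and in placode cells with 0 or at least 1 UMI of Shh, in Ctrl (blue) and cKO (red). In basal cells with Bmp2, Fgf20 stood at 16.3 CPM in Ctrl and 48.0 CPM in cKO and Cxcr4 at 7.07 and 32.4 CPM.

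The Fgf20 difference of the placode was seen in cycling cells. Cells with a UMI of Mki67 or Top2a made up 60.9% of Ctrl and 65.6% of cKO placode cells. In them Fgf20 was at 79.1 CPM in Ctrl and 150 CPM in cKO, a ratio of 1.90 (1.48 to 2.45), and in the others at 143 and 129 CPM, a ratio of 0.904 (0.636 to 1.28), and the difference between these ratios was not tested. For Ltb both kinds of placode cell were higher in cKO, by 2.76 (1.36 to 6.03) and 2.05 (1.16 to 3.73). For Nfkbia the ratios were 0.751 (0.655 to 0.860) and 0.837 (0.690 to 1.01).

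Within single placode cells the members were found together only loosely, as sparse counts allow. Among Ctrl placode cells thinned to 5500 UMIs, Fgf20 was seen in 49.2% (35.9 to 62.5) of the 59 cells with an Edar UMI and in 30.8% (22.3 to 40.5) of the 107 without, and in cKO in 51.7% (38.4 to 64.8) of 60 and 41.1% (32.4 to 50.3) of 124. Relb was seen in 41.7% (29.1 to 55.1) of cKO cells with Edar and 21.0% (14.2 to 29.2) of those without, but in Ctrl in 23.7% and 22.4%. The intervals of each pair overlapped, and no order was read from them.

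The rest of the pathway was described through a list of 50 genes, of which 49 were in the tables and 41 were measured in placode and basal cells. By the 2-fold rule 10 of these 41 were higher in placode cells and 6 lower, against 3.17% and 2.93% of all genes, and the list includes genes put there as placode genes. Upstream of NF-κB, Birc3, an inhibitor of apoptosis that takes part in TNF receptor signalling, was the only one of 15 measured genes that was higher, by 3.40-fold (2.13 to 5.27) in Ctrl and 3.12-fold (2.13 to 4.49) in cKO. The ligand Eda was found the other way round from its receptor, with 83 and 38 UMIs in basal cells (3.51 and 2.62 CPM) and 0 and 1 in placode cells. In Ctrl placode cells the floor of 3 counts stands at 1.74 CPM, and the cKO ratio of 0.211 (0.0052 to 1.25) had an interval that included 1. Of 9 NF-κB family and feedback genes 3 were higher: Tnfaip3, which encodes the feedback inhibitor A20, 8.84-fold (5.65 to 13.7) and 10.5-fold (6.78 to 16.5), Nfkb2 2.43-fold and 2.89-fold, and Bcl3 6.62-fold and 9.16-fold on 13 and 16 UMIs in placode cells. These 3 are target genes of NF-κB in many cell types, as are Birc3, Tnf and Cxcl10.

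Among partners of the members, Tnf was higher in placode cells, 12.4-fold and 15-fold on 18 and 15 UMIs there. Ltbr, the receptor for lymphotoxin β, was lower by the rule with 2 and 1 UMIs in placode cells and 81 and 45 in basal cells, and the interval included 1 in both libraries. Ackr3, the scavenging receptor for Cxcl12, stood at 0.389 (0.225 to 0.629) and 0.210 (0.104 to 0.380) of its basal level, in contrast to Cxcr4, and Fgfr3 at 0.473 and 0.305. Among placode genes Bmp2 (6.23-fold and 7.04-fold), Wnt10b (2.84-fold and 2.78-fold), Madcam1 (22.3-fold and 22.7-fold), Ctgf and Cxcl10 were higher. The secreted BMP antagonists Fst and Sostdc1 were lower, Fst at 0.419 (0.354 to 0.494) and 0.461 (0.401 to 0.527) of basal and Sostdc1 at 0.380 (0.324 to 0.443) and 0.438 (0.377 to 0.508). The plot of placode against basal levels shows the 5 members above the 2-fold line in both libraries.

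**Figure D5:**
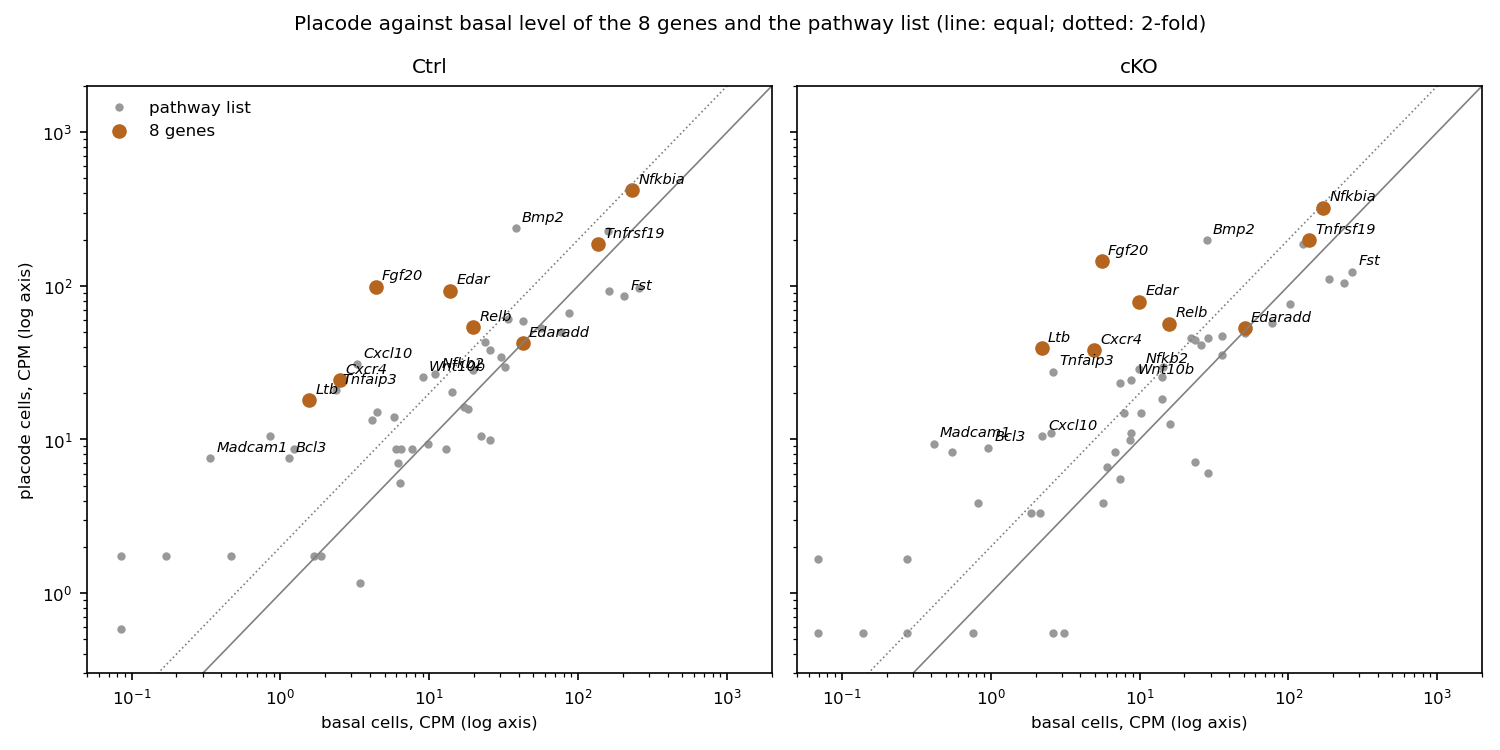
Level in placode cells (vertical log axis, CPM) against level in basal cells (horizontal log axis, CPM) for the 8 genes (brown) and the genes of the pathway list with a UMI in both groups (grey), in Ctrl and cKO. The solid line marks equal levels and the dotted line 2-fold, above which lie Edar, Relb, Ltb, Fgf20 and Cxcr4 in both panels.

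By the 1.5-fold rule the pathway list showed no common direction between the libraries. Without a fold limit, 10 of 12 measured upstream genes were above a ratio of 1 in placode cells and 2 below. In basal cells 5 of 16 were above and 11 below. Of the listed placode genes, 4 of 11 were above 1 and 7 below in placode cells, and 2 of 10 above and 8 below in basal cells. In placode cells 4 of 38 measured genes were at least 1.5-fold higher in cKO and 5 lower, against the 11% and 8.09% of all genes, and the median log2 ratio of the list was 0.09. With 50 or more UMIs the higher genes were Birc2 at 1.54 (1.08 to 2.23), Birc3 at 1.53 (0.918 to 2.61) and the WNT ligand Wnt10a at 1.51 (1.15 to 2). Cxcl10, a chemokine gene and like Nfkbia an NF-κB target, was lower in cKO, 30.8 CPM in Ctrl and 10.5 CPM in cKO, a ratio of 0.340 (0.190 to 0.584). Nfkbia was likewise lower in cKO placode cells, whereas Ltb was higher. The other NF-κB targets named above did not share the lower level, apart from Tnf at 10.5 CPM in Ctrl and 8.28 CPM in cKO. Tnfaip3 stood at 20.9 and 27.6 CPM, Nfkb2 at 26.8 and 28.7 CPM, Bcl3 at 7.56 and 8.83 CPM and Relb at 54.1 and 56.9 CPM. In basal cells Birc3 was higher at 1.67 (1.27 to 2.21) and Ctgf lower at 0.621 (0.413 to 0.916), among 2 higher and 3 lower of 43, against 8.2% and 4.89% of all genes. In Shh+ cells 2 of 34 were higher and 4 lower, against 9.29% and 8.6%, with Fst at 0.539 (0.420 to 0.689), Bmp4 at 0.604 (0.366 to 0.982) and the NF-κB subunit gene Nfkb1 at 0.651 (0.453 to 0.928). In other follicle cells 2 of 42 were higher and 0 lower, against 6.16% and 4.51%, and in suprabasal cells 3 of 34 each, against 11.9% and 5.68%.

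Genes with the pattern most like that of Edar and of Fgf20 were taken over the 6 groups shown in the plot of levels, by Pearson's r of log2(CPM + 5) in each library, ranked by the lower of the 2 values among 10946 genes with at least 100 UMIs. With 6 points that share their library and depth, r is a description and carries no test. Among the 5 nearest to Edar were Cnn3 (0.99 in Ctrl and 0.99 in cKO), Epb41l2 (0.98 and 1.00), Eva1a (0.98 and 0.98) and Tcf7 (0.99 and 0.98). Tcf7 encodes a transcription factor of the WNT pathway. Nearest to Fgf20 were Ccr10, Rhpn2, Krt18, Lrp4 and 4930425O10Rik, each with r of at least 0.96 in both libraries. Lrp4, a co-receptor that modulates WNT signalling, stood at 181 and 210 CPM in placode cells and 39.4 and 49.0 CPM in basal cells. With a pseudocount of 1 in place of 5, 4 of the 5 genes for Edar and 1 of the 5 for Fgf20 stayed in the list. Among the other members Nfkbia (rank 61) and Ltb (rank 65) were closest to Edar and Edaradd (rank 3247) was farthest, whereas Relb (rank 70) was closest to Fgf20.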

How the data were processed

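Single-cell RNA-seq libraries of E17 skin epithelium, 1 Ctrl and 1 cKO, had been made with the 10x Genomics 3′ v2 kit. The authors deposited raw counts of UMIs per gene and barcode for every possible barcode, made with Cell Ranger on mm10, before any cell filter or aggregation. The submitters' processing notes give Cell Ranger 2.0, the methods a later version, and the annotation release is not given in the sources used here. The labels spell the reporter Rosa16-YFP and the methods Rosa26.

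The members and all gene lists were chosen with earlier results of these data known. Barcodes with at least 1800 genes were kept, and 16 kept barcodes were shared by both libraries (0.36% and 0.447%). Other cell types were cells with at least 5 UMIs of Col1a1, Col1a2, Col3a1 and Lum or 3 UMIs of a melanocyte and glia, endothelial, immune or Merkel list, and cells were then assigned in the order suprabasal, placode, other follicle, basal. As first written the mesenchymal list also held Dcn, which 76.0% and 70.1% of kept cells and 99.4% and 95.9% of placode cells contained, so Dcn was dropped after the data were seen and the first version became an alternative. No doublet caller was run, and leaving out the 4% of cells with the most UMIs was an alternative.

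For each group the UMIs of a library were added up and expressed as CPM. Between libraries a gene was measured with 20 or more UMIs in the 2 libraries together. Between placode and basal cells it was measured with 20 or more UMIs over both groups in each library. Calls were at 1.5-fold between libraries and 2-fold between groups in both libraries. All genes of the tables that met the minimum gave the background. A sum of 0 was given a floor of 3 counts. Shares of cells carry Clopper-Pearson intervals. UMIs count molecules, so intervals of levels and ratios cover sampling of molecules but not differences between cells or animals. Scaling alternatives used TMM (edgeR 4.0.16, R 4.3.3), the median of ratios and totals without abundant genes. Other alternatives changed the gene minimum, each group's threshold, cell weights, depth, free RNA, mitochondrial share and cycling cells. Work used Python 3.11.15, numpy 2.4.6, scipy 1.17.1, pandas 2.3.3 and matplotlib 3.10.9. All 8 members are named in every group, with those of the 50 listed genes past a call on at least 50 UMIs (at most 10 in a comparison) and the 5 genes most like Edar and Fgf20, of which 1 for Edar is not reported here. Madcam1, with fewer UMIs, and genes beyond the first 10 between placode and basal cells were named after their values were seen.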

Additional observations from a re-analysis of the deposited data

How the results depend on the processing

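The count of 5 members that were 2-fold higher in placode than in basal cells ranged from 5 to 6 under 15 alternatives, and the 6 pairs of member and group higher in cKO ranged from 5 to 7. The 0 pairs lower in cKO became 1 with at least 2500 genes per cell, 2 with basal cells at 1% or more and 1 after thinning to 5500 UMIs. With Dcn among the mesenchymal markers, an alternative added after seeing the data, the counts were 2, 1 and 3, and the log2 ratio of Ltb in Shh+ cells was -1.19 in place of 1.31. The construction of that alternative leaves fewer cells, 16 and 30 in the placode, and the cause of the sign was not tested. Ltb in placode cells passed 1.5-fold in all 16 alternatives that gave a value and Fgf20 in Shh+ cells in all 16. Cxcr4 in other follicle cells passed in 12 of 17 and in placode cells in 14 of 16. The log2 ratio of Fgf20 in placode cells ranged from -0.15, without cells with Mki67 or Top2a, to 0.94, with at least 2500 genes per cell, and in basal cells from -0.89 to 0.82. The log2 ratio of Edar in placode cells ranged from -0.33 to -0.19. Of the ratios between libraries under an alternative 575 stayed within the counting interval of the main value and 29 did not, beside that of Ltb in Shh+ cells, the only one past 1.5-fold to change sign. Ratios under 1.5-fold also changed sign, among them Fgf20 in placode and basal cells, Ltb in basal cells (lowest log2 ratio -0.41) and Tnfrsf19 in placode cells (lowest -0.66). Scaling moved all ratios of a group by between -0.08 and 0.03 on the log2 scale. Shares of cells moved with depth, with 48 out of their interval and 16 within it. In suprabasal cells Ltb, Fgf20 and Cxcr4 had too few UMIs to be measured, with 1 to 3 in each library. Median depth there was 11343 UMIs in Ctrl and 10599 UMIs in cKO, against 8745 and 8173 UMIs in placode cells. No paired analysis was possible because each condition has 1 library.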
